A study of Homo sapiens with 6 samples.

Results

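The MAGEA genes code for cancer-testis antigens and lie in clusters on the long arm of the X chromosome. The 7 members described here, *MAGEA1*, *MAGEA3*, *MAGEA4*, *MAGEA6*, *MAGEA10*, *MAGEA11* and *MAGEA12*, are the rows with these symbols among the 20824 genes of the deposited RNA-Seq table. They were chosen by family and by RPKM values of these same libraries, since *MAGEA6* was high with 1 of the TBX3 isoforms. Their levels and differences between the lines are therefore given as a description, with no p-value, and nothing is read from the counts of genes past a threshold that include them. Of the 7 members, 2 (*MAGEA6* and *MAGEA12*) reached the mean of 0.5 RPKM over the 6 libraries that was required for testing, and *MAGEA6* reached it through the TBX3iso1 line alone.

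The study asked how overexpression of TBX3, a T-box transcription factor, changes early breast cancer cells. 21NT is a human breast line that resembles ductal carcinoma *in situ*. Parental 21NT cells were transfected with a pcDNA3.1 plasmid that was empty (EV) or carried TBX3iso1 or TBX3iso2, the isoforms of TBX3, and mRNA of each of the 3 lines was sequenced as 2 libraries. All 3 lines went through the same transfection, G418 selection and culture medium, and each line is a pool of resistant clones from 1 transfected line, so the libraries are not replicates of separate transfections. The sources used here do not say whether the libraries of a line came from separate cultures, and the spread between them may be technical. The libraries held 43176600 to 54512400 alignments. *TBX3* itself was at 8.52 and 8.24 RPKM in the EV libraries, 13.1 and 11.4 RPKM with TBX3iso1 and 17.5 and 15.5 RPKM with TBX3iso2, a ratio of the means to EV of 1.46 and 1.97. The table has 1 value for the gene, so the isoforms cannot be told apart in it. All 10 epithelial markers were present in every library, with *KRT8* between 541 and 768 RPKM and *EPCAM* between 165 and 232 RPKM.

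In adults, MAGEA genes are active mainly in the germ cells of the testis and are silent in most other tissues, where DNA methylation of their promoters is known to keep them off. Many tumours express some of them again, and peptides of the proteins shown on HLA molecules can be recognised by T cells. The proteins share a MAGE homology domain that binds RING-type ubiquitin ligases. MAGEA3 and MAGEA6 are known as partners of the ligase TRIM28.

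On the GRCh37 build, *MAGEA6* lies at chrX:151867214-151870825 on the plus strand, *MAGEA12* at chrX:151899293-151903206 on the minus strand and *MAGEA3* at chrX:151934652-151938240 on the minus strand. Their starts fall within a stretch of 71.0 kb, with *MAGEA12* 36.0 kb from *MAGEA6*. *MAGEA10* (chrX:151301782-151307050, minus strand) starts 560.2 kb from the start of *MAGEA6*, *MAGEA1* (chrX:152481520-152486116, minus strand) 618.9 kb and *MAGEA4* (chrX:151080967-151093643, plus strand) 786.2 kb. *MAGEA11* (chrX:148769894-148798928, plus strand) is the farthest member at 3.1 Mb. In the GENCODE annotation the whole coding sequence of every member but *MAGEA11* lies in the last exon. The coding sequences predict proteins of 309 residues (MAGEA1) to 429 residues (MAGEA11), with 314 residues each for MAGEA3, MAGEA6 and MAGEA12.

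*MAGEA6* and *MAGEA3* differ at 18 of 942 aligned coding bases, an identity of 98.1%. *MAGEA6* shares 92.5% of coding bases with *MAGEA12*, 82.5% with *MAGEA4*, 80.7% with *MAGEA1*, 62.5% with *MAGEA10* and 55.9% with *MAGEA11*. The stretch below is shown because it is as long as a read of the study, 51 bases, and tells all 7 members apart. It covers coding bases 582 to 632 of *MAGEA6*, in the last exon at chrX:151869892-151869942, with the aligned stretch of each other member. Capitals mark bases that differ from *MAGEA6*.
MAGEA6: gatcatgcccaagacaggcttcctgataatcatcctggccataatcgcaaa
MAGEA3: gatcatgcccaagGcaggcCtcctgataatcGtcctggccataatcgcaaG
MAGEA12: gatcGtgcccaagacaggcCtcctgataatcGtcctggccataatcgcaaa
MAGEA1: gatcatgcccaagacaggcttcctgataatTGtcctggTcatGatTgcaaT
MAGEA4: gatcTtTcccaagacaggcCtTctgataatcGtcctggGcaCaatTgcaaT
MAGEA11: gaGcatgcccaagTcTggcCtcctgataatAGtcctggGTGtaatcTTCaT
MAGEA10: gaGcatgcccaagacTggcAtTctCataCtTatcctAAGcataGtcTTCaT
In this stretch *MAGEA12* differs from *MAGEA6* at 3 bases and *MAGEA3* at 4, and the others at 6 to 15.

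Such stretches were uncommon in *MAGEA6* and *MAGEA3*. When each transcript was divided into all of its 51-base words, 57.8% of the words of *MAGEA6* and 57.9% of those of *MAGEA3* occurred exactly in an annotated transcript of another gene. With up to 2 mismatches allowed against MAGEA, MAGEB, MAGEC and CSAG transcripts, 95.3% and 95.9% of the words had a match, which left 80 of 1690 words of *MAGEA6* and 69 of 1674 words of *MAGEA3* as their own. For *MAGEA6* nearly all of this was shared with *MAGEA3*, with 93.2% of its words within 2 mismatches, and 24.6% were that near to a word of *MAGEA12*. *MAGEA12* shared 7.9% of its words exactly and 48.9% within 2 mismatches, most often with *MAGEA2* and *MAGEA2B* at 35.4%. The other members shared between 1.0% (*MAGEA11*) and 17.7% (*MAGEA4*) within 2 mismatches. Words were compared singly, without the mate of a paired read and without preferring an exact match to a near one. The shares are therefore not shares of reads that could not be placed. The alignment kept reads with up to 10 places in the genome, and how reads with several places were divided among genes is not given in the sources used here. The levels of *MAGEA6* and *MAGEA3* are therefore uncertain as single values, and their sum is given beside them.

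**Figure D1:**
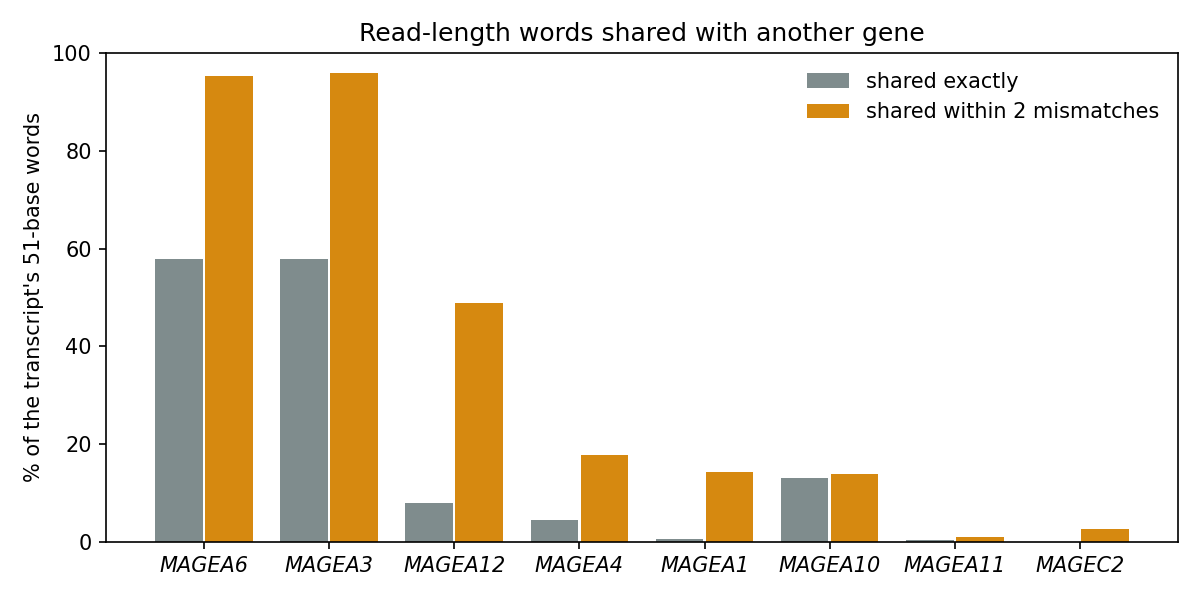
Share of the 51-base words of each transcript, in percent on the vertical axis, that also occur in a transcript of another gene. Grey bars count exact matches, and orange bars add matches within 2 mismatches in MAGEA, MAGEB, MAGEC and CSAG transcripts. The 2 highest pairs of bars are *MAGEA6* and *MAGEA3*, each above 95% within 2 mismatches, while *MAGEA12* stands at 48.9% and *MAGEC2*, a MAGE gene outside the members, at 2.6%.

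*MAGEA6* was measured at 0.0836 and 0.0257 RPKM in the EV libraries, 5.18 and 6.41 RPKM with TBX3iso1 and 0.133 and 0.160 RPKM with TBX3iso2. Both TBX3iso1 libraries stood far above all others, and the TBX3iso2 libraries were low but above both EV libraries. The means were 0.0546 ± 0.0409 RPKM (SD, n = 2) for EV, 5.79 ± 0.873 RPKM (SD, n = 2) for TBX3iso1 and 0.147 ± 0.0194 RPKM (SD, n = 2) for TBX3iso2. The TBX3iso1 line therefore carried 106 times the EV mean, with ratios between single libraries of 61.9 to 249.5. The EV values rest on few reads. With the length of the annotated transcript, their RPKM correspond to about 7.93 and 1.93 alignments, against 459.53 and 560.12 with TBX3iso1 and 11.77 and 12.07 with TBX3iso2. With TBX3iso2 the ratio to the EV mean was 2.68, and between single libraries it was 1.59 to 6.24. On the log2(RPKM + 0.1) scale, which understates changes of genes this low, the differences were 5.27 for TBX3iso1 against EV, 0.70 for TBX3iso2 against EV and -4.57 for TBX3iso2 against TBX3iso1. Among all genes of the table, 23.3% had a lower mean than *MAGEA6* in EV, 65.4% with TBX3iso1 and 31.1% with TBX3iso2. In a bulk library, a few cells with much *MAGEA6* RNA and many cells with little cannot be told apart.

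*MAGEA3*, the near-identical neighbour, was at 0.0590 and 0.107 RPKM in EV, 0.261 and 0.166 RPKM with TBX3iso1 and 0.175 and 0.171 RPKM with TBX3iso2. The libraries of both isoforms were above both EV libraries, and those of the isoforms overlapped. The means were 0.0832 ± 0.0342 RPKM (SD, n = 2), 0.213 ± 0.0671 RPKM (SD, n = 2) and 0.173 ± 0.00327 RPKM (SD, n = 2), and the differences from EV were 0.77 and 0.59 on the log2(RPKM + 0.1) scale. These levels correspond to between 5.54 and 22.93 alignments per library. *MAGEA3* did not reach the level required for testing.

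The ratio of *MAGEA6* to *MAGEA3* within a library was 1.42 and 0.239 in EV, 19.9 and 38.7 with TBX3iso1 and 0.757 and 0.938 with TBX3iso2. The gain in TBX3iso1 cells was thus assigned almost wholly to *MAGEA6* and not divided evenly between the near-identical genes. Whether a part of the *MAGEA3* values came from *MAGEA6* reads, or the reverse, was not tested. The sum of both genes does not depend on that division, but it can still hold reads of other genes. *MAGEA12*, with about 2200.5 to 3267.07 alignments per library, matches 2.4% of the words of *MAGEA6* and 2.7% of those of *MAGEA3* exactly. Whether *MAGEA12* reads entered the low values of both genes or their sum was not tested. The sum was 0.143 and 0.133 RPKM in EV, 5.44 and 6.58 RPKM with TBX3iso1 and 0.308 and 0.331 RPKM with TBX3iso2, and the log2 differences from EV were 4.68 and 0.82. The direction and the order of the lines were those of *MAGEA6* alone.

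*MAGEA12* was the abundant member in every line. It was at 29.7 and 28.4 RPKM in EV, 33.8 and 36.3 RPKM with TBX3iso1 and 34.2 and 37.5 RPKM with TBX3iso2. The libraries of both isoforms were above those of EV and overlapped each other. The means were 29.06 ± 0.874 RPKM (SD, n = 2), 35.03 ± 1.80 RPKM (SD, n = 2) and 35.86 ± 2.36 RPKM (SD, n = 2), 1.21 and 1.23 times the EV mean with TBX3iso1 and TBX3iso2, and the log2 differences were 0.27 and 0.30. Between 88.9% and 90.6% of all genes had a lower mean than *MAGEA12*, depending on the line. *MAGEA12* made up 99.4% and 99.5% of the RPKM sum of the 7 members in EV, 86.1% and 84.6% with TBX3iso1 and 99.0% and 99.1% with TBX3iso2. The share of *MAGEA6* in that sum was 13.2% and 14.9% with TBX3iso1 and below 1% in the other libraries. *MAGEA12* was thus the 1 member above 1 RPKM in EV and with TBX3iso2, and with TBX3iso1 there were 2.

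The remaining members were at the edge of detection. *MAGEA11* was at 0.0217 RPKM in EV library 1, 0.0242 RPKM in TBX3iso1 library 2, 0.0234 and 0.0139 RPKM with TBX3iso2 and 0 in the other 2 libraries. *MAGEA1*, a classical melanoma antigen, had a value above 0 in 1 library of TBX3iso1 (0.0143 RPKM), *MAGEA4* in 1 library of TBX3iso2 (0.0124 RPKM) and *MAGEA10* in 1 library of EV (0.00824 RPKM). Each of these values corresponds to between 1.09 and 2.31 alignments over the annotated transcript. The libraries of the lines overlapped for all 4 genes, and differences between lines were not detectable at this depth.

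**Figure D2:**
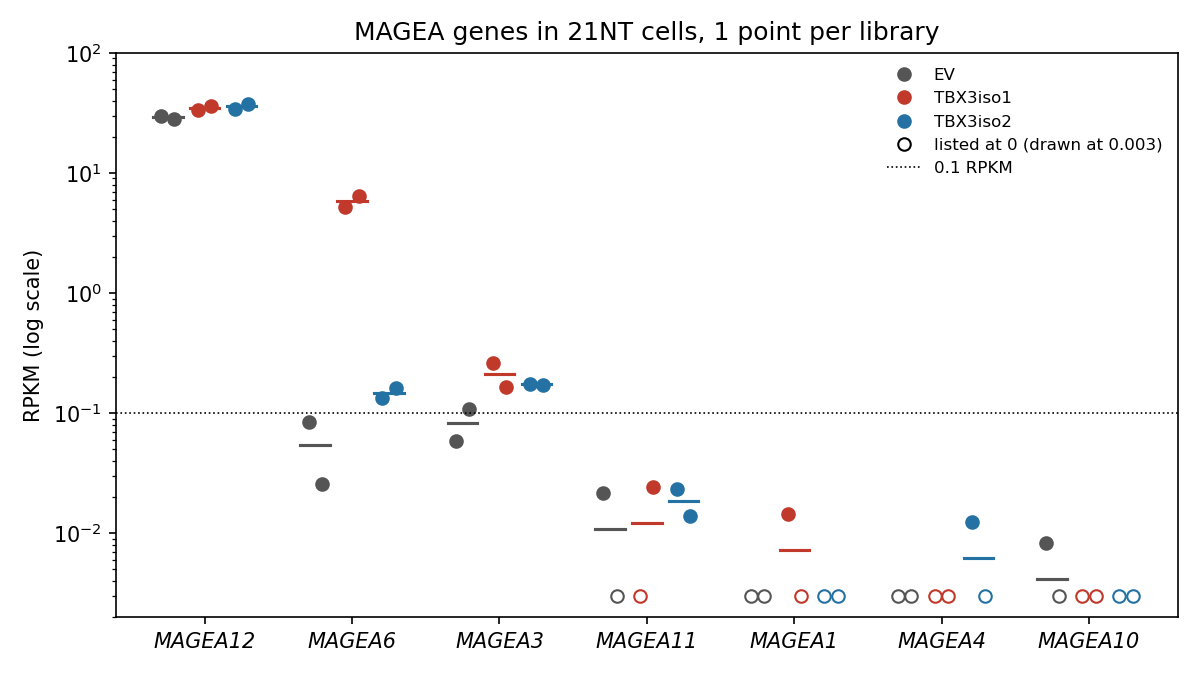
RPKM of the 7 MAGEA genes on a log axis, with 1 point for each library, bars at the mean of each line and open points for values listed at 0. The TBX3iso1 points of *MAGEA6* stand alone at 5.18 and 6.41 RPKM, *MAGEA12* lies between 28.4 and 37.5 RPKM in all lines, and *MAGEA11*, *MAGEA1*, *MAGEA4* and *MAGEA10* stay below 0.1 RPKM.

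In order of mean level, *MAGEA12* led in every line. In EV it was followed by *MAGEA3* and *MAGEA6*, which overlapped between libraries, and with TBX3iso1 by *MAGEA6* and then *MAGEA3*, which did not. With TBX3iso2 *MAGEA3* and *MAGEA6* followed again, with both *MAGEA3* libraries slightly above those of *MAGEA6*. The lowest 4 members overlapped in EV and with TBX3iso1, whereas with TBX3iso2 both *MAGEA11* libraries were above those of the other 3, at about 1 or 2 alignments. The sum of all 7 members was 29.8 and 28.6 RPKM in EV, 39.2 and 42.9 RPKM with TBX3iso1 and 34.5 and 37.9 RPKM with TBX3iso2.

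Over the whole table, 2757 of 12805 genes tested (21.5%) were called different between TBX3iso1 and EV by limma, which required more than 1.5-fold and a Benjamini-Hochberg adjusted p below 0.05, 7.46% higher and 14.1% lower. The shares were 21.2% for TBX3iso2 against EV, 8.94% higher and 12.3% lower, and 6.29% for TBX3iso2 against TBX3iso1, 3.47% higher and 2.82% lower. Both isoforms were compared with the same EV libraries. The split of the TBX3iso1 calls depended on the scaling, with 955 genes higher and 1802 lower as deposited, 1263 and 1449 with median-ratio scaling and 1270 and 1305 with quantile normalization. Between the isoforms, 444 higher and 361 lower became 351 and 440 with median-ratio scaling and 347 and 433 with quantile normalization. Of the 2 members tested, *MAGEA6* passed these thresholds in all 3 comparisons, higher with each isoform than in EV and lower with TBX3iso2 than with TBX3iso1, and *MAGEA12* in none. Nothing is read from these counts, since *MAGEA6* was chosen for this contrast. For TBX3iso2 against EV, *MAGEA6* missed the thresholds under 6 alternatives, for example with 1 RPKM added in place of 0.1 RPKM (log2 difference 0.12) and without EV replicate 2 (0.42). Without any test, the libraries of 3 members (*MAGEA3*, *MAGEA6* and *MAGEA12*) stood above EV with each isoform, a pattern shown by 26.8% of all genes with TBX3iso1 and 28.6% with TBX3iso2. None stood below EV (38.3% and 33.7% of all genes). Between the isoforms, *MAGEA6* alone stood lower with TBX3iso2 (19.3% of all genes) and no member higher (26.7%).

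At the other genes of the cluster the 3 lines lay closer together than at *MAGEA6*. Of the 6 other MAGEA genes with a row, all lying outside the members, *MAGEA2* was at 0.0408 and 0.0456 RPKM in EV, 0.0395 and 0.0638 RPKM with TBX3iso1 and 0 and 0.0205 RPKM with TBX3iso2. *MAGEA2B*, *MAGEA5*, *MAGEA8*, *MAGEA9* and *MAGEA9B* did not exceed 0.0121 RPKM in any library. Some of these values are far below that of 1 alignment, such as 1.45e-42 RPKM for *MAGEA5* in EV library 1, so they can hold no whole read. *CSAG1*, a cancer-testis gene of another family on the plus strand, starts 22 bases from the start of *MAGEA12* on the opposite strand. *CSAG1* was at 23.8 and 22.4 RPKM in EV, 20.9 and 24.8 RPKM with TBX3iso1 and 23.8 and 26.6 RPKM with TBX3iso2, with log2 fold changes against EV of -0.02 ± 0.10 and 0.12 ± 0.10 (SE, limma, Benjamini-Hochberg adjusted p = 0.891 and 0.355). The ratio of *MAGEA12* to *CSAG1* was 1.25 and 1.27 in EV, 1.62 and 1.46 with TBX3iso1 and 1.44 and 1.41 with TBX3iso2. *CSAG3*, whose start is 15.8 kb from that of *MAGEA6*, lay between 0.0857 and 0.192 RPKM in the 6 libraries.

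**Figure D3:**
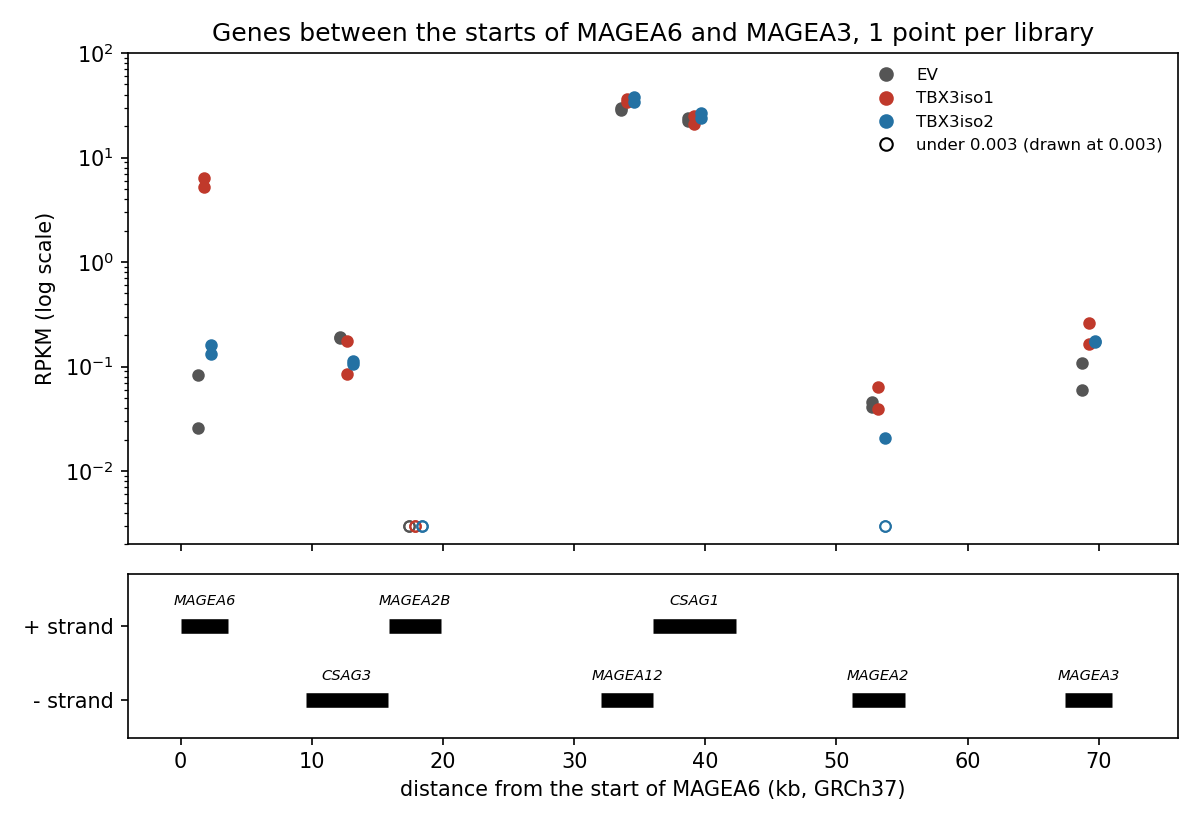
Upper panel, RPKM on a log axis of the genes between the starts of *MAGEA6* and *MAGEA3*, with 1 point per library at the middle of each gene; lower panel, the genes on both strands by distance from the start of *MAGEA6* in kb. The lines separate widely at *MAGEA6* alone, and *MAGEA12* and *CSAG1* are above 20 RPKM in every library.

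Non-MAGE genes of distal Xq27 and Xq28 were followed as neighbours. Of the 33 listed, 29 had a row and 19 were tested, of which none was higher and 5 were lower with TBX3iso1 (26.3%), and 1 was higher and 5 were lower with TBX3iso2 (31.6%), beside 21.5% and 21.2% of all genes tested. Of the falls with TBX3iso1, that of *MTM1*, a lipid phosphatase (-0.60), was lost under 8 of 16 alternatives and that of *GABRE* under 1, the linear model without moderation. Their median log2 fold changes were -0.13 and -0.041, beside -0.051 and -0.0021 over all genes tested. The largest falls were those of *BGN*, which codes for the matrix proteoglycan biglycan, with log2 fold changes of -3.07 and -2.90, and of *HMGB3*, *CD99L2* and *GABRE*, between -0.90 and -1.29 (all limma, highest Benjamini-Hochberg adjusted p = 0.00164). *DUSP9*, a MAP kinase phosphatase, was the gene that rose with TBX3iso2 (log2 fold change 0.93).

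The other type I MAGE genes, which are likewise restricted to germ cells and tumours, had 7 rows for 13 listed MAGEB and MAGEC genes, of which *MAGEC2* was the 1 gene tested. It reached the level required for testing through the TBX3iso1 line alone. *MAGEC2* was at 0.374 and 0.431 RPKM in EV, 1.61 and 1.77 RPKM with TBX3iso1 and 0.403 and 0.553 RPKM with TBX3iso2. Both TBX3iso1 libraries stood above the other 4, and those of EV and TBX3iso2 overlapped. *MAGEC2* rose with TBX3iso1 against EV by 1.83 ± 0.18 on the log2 scale (SE, limma, Benjamini-Hochberg adjusted p = 0.000253), was not called with TBX3iso2 (0.19 ± 0.18, adjusted p = 0.429) and was lower with TBX3iso2 than with TBX3iso1 (-1.64 ± 0.18, adjusted p = 0.00193). The last call was lost under 1 alternative, a linear model without moderation (adjusted p = 0.0560), and both calls were also made without the filter on low values. *MAGEC2* starts 10.57 Mb from *MAGEA6*. It shares 0.0% of its read-length words exactly with another gene. Within 2 mismatches it shares 2.6% with MAGEA, MAGEB, MAGEC and CSAG genes, the families that were searched. *MAGEC1* was at 0.120 and 0.113 RPKM in EV, 0.00567 and 0.0408 RPKM with TBX3iso1 and 0.0507 and 0.0336 RPKM with TBX3iso2. The type II MAGE genes, which are broadly expressed, had 8 rows and 5 tested genes, *MAGED1*, *MAGED2*, *MAGEF1*, *MAGEH1* and *NSMCE3*, and none was called in any of the 3 comparisons by limma. The largest of their log2 fold changes was -0.44 ± 0.07 (SE) for *MAGEF1* with TBX3iso1, which had an adjusted p of 0.0025 in limma with Benjamini-Hochberg adjustment and missed the threshold of 1.5-fold.

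Of 95 other listed X-linked cancer-testis genes, 68 had a row and 2 were tested, *XAGE2* and *SPANXC*, both of which have near-identical copies that can share reads. *XAGE2* was at 0.0353 and 0.0447 RPKM in EV, 0.803 and 0.767 RPKM with TBX3iso1 and 1.01 and 1.13 RPKM with TBX3iso2. *SPANXC* was at 0.246 and 0.0962 RPKM in EV, 0.929 and 0.486 RPKM with TBX3iso1 and 1.06 and 1.61 RPKM with TBX3iso2. Both genes reached the level required for testing through the isoform lines, not through EV. A listed gene as low in EV that did not rise could not be tested, so nothing is read about the list from their calls. *XAGE2* rose by 2.66 ± 0.18 and 3.06 ± 0.18 and *SPANXC* by 1.58 ± 0.36 and 2.43 ± 0.36 on the log2 scale with TBX3iso1 and TBX3iso2 (SE, limma, highest Benjamini-Hochberg adjusted p = 0.0103). The rise of *SPANXC* with TBX3iso1 was lost under 4 alternatives, including the fits without EV replicate 2 and without the filter on low values, and that with TBX3iso2 under 1, the linear model without moderation. Neither gene was called between the isoforms (adjusted p = 0.176 and 0.159, limma). The list as a whole was mixed. Over its 68 rows, nearly all below the level required for testing, the TBX3iso1 libraries stood above EV for 8 and below EV for 15 (26.8% and 38.3% of all genes). The TBX3iso2 libraries stood above EV for 11 and below EV for 19 (28.6% and 33.7% of all genes).

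**Figure D4:**
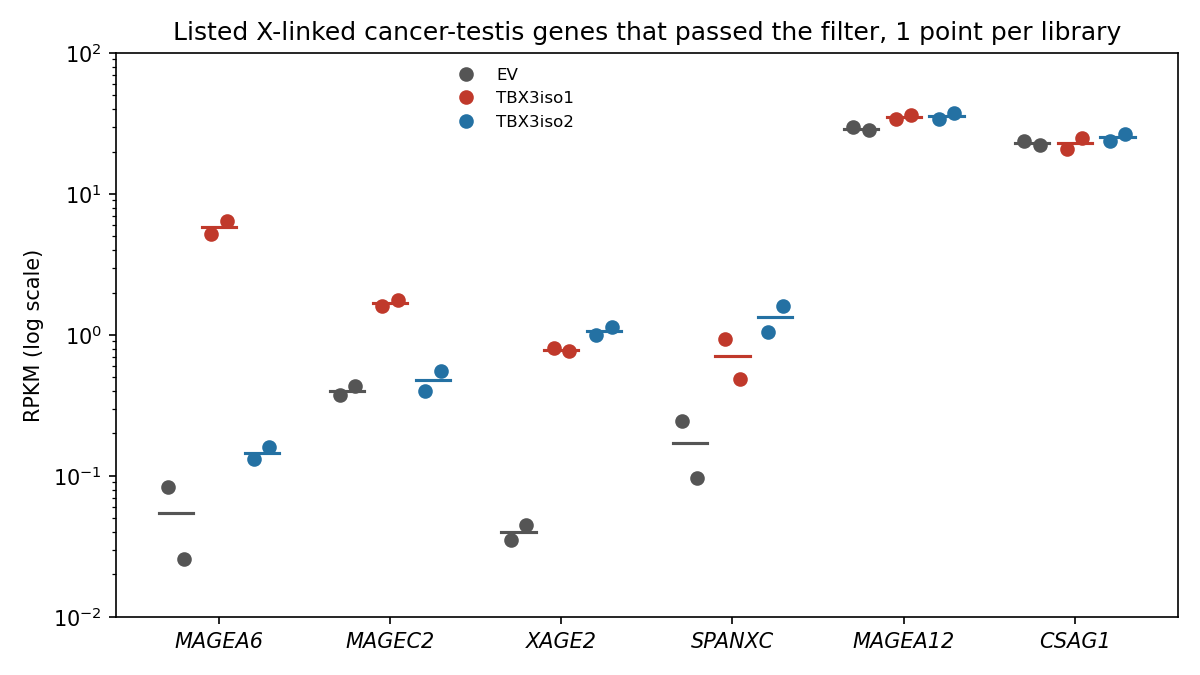
RPKM on a log axis of listed X-linked cancer-testis genes that reached the level required for testing, with 1 point per library and a bar at the mean of each line. *MAGEA6* and *MAGEC2* are highest with TBX3iso1, *XAGE2* and *SPANXC* are higher with both isoforms than in EV, and *MAGEA12* and *CSAG1* stay between 20.9 and 37.5 RPKM.

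Among 80 listed autosomal cancer-testis genes, 59 had a row and 19 were tested. With TBX3iso1 1 was higher and 1 lower (10.5%), with TBX3iso2 2 were higher and 2 lower (21.1%), and 3 were higher with TBX3iso2 than with TBX3iso1 (15.8%). Over all genes tested, the shares called in these comparisons were 21.5%, 21.2% and 6.29%. *IGF2BP3*, an RNA-binding protein of embryonic and tumour cells, was at 1.44 and 1.56 RPKM in EV, 5.52 and 4.97 RPKM with TBX3iso1 and 7.04 and 6.05 RPKM with TBX3iso2. *ZNF165*, a zinc finger protein, was at 13.5 and 15.4 RPKM in EV, 6.38 and 7.31 RPKM with TBX3iso1 and 9.30 and 8.61 RPKM with TBX3iso2. The other calls were those of *SPA17* (higher with TBX3iso2 than in EV or with TBX3iso1), *LDHC* (lower with TBX3iso2 than in EV), and *DMC1* and *CABYR* (higher with TBX3iso2 than with TBX3iso1). Of these, the calls of *SPA17* and *LDHC* against EV were lost under 4 of 16 and 7 of 15 alternatives, and those of *DMC1* and *CABYR* under 8 of 15 and 5 of 16. Germ-cell markers had 9 rows of 16 listed, with a summed level of 0.752 to 1.18 RPKM per library, most of it from *TSSK6* (0.644 to 0.988 RPKM), which was the 1 gene tested and was not called by limma in any comparison.

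The promoters of *MAGEA6* and *MAGEA3* were compared because the deposited values assign the gain with TBX3iso1 almost wholly to *MAGEA6*. How shared reads were divided is not known, so a true difference in level between the genes is not established. RefSeq promoters of 300 bases, from 250 before to 50 after the start, were at hand for 5 of the 7 members (GRCh38.p14 table) and those of *MAGEA6* and *MAGEA3* were identical over all 300 bases. The part that lies before the GENCODE starts of both genes, 192 bases, is shown once with the CpG positions in capitals. It was found on GRCh37 at chrX:151867022-151867213 on the plus strand for *MAGEA6* and at chrX:151938257-151938448 on the minus strand for *MAGEA3*, and at both places it overlaps an exon of an annotated non-coding RNA.
MAGEA6 and MAGEA3: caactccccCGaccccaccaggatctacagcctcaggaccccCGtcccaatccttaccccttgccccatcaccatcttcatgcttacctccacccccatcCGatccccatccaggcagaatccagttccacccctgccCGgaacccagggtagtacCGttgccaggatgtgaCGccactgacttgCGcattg
These bases hold 7 CpG, and the 300-base promoters hold 19. Of 34796 distinct promoters in the table, 57.1% had fewer CpG than that, with a median of 14 and quartiles of 4 and 28. The word CCGGAA, a core of ETS factor sites, occurs 1 time in the shown stretch, at base 138, and in 17.2% of all promoters on either strand. The SP word GGGCGG (44.9% of all promoters) and the T-box half-site word AGGTGT (11.3%) did not occur in the promoters of *MAGEA6* and *MAGEA3*. The 2 promoters of *MAGEA12* hold 9 and 15 CpG and none of the 3 words, and the better match of the 2 shares 69.0% of aligned bases with that of *MAGEA6*. The promoter of *MAGEA11* holds 21 CpG and 4 GGGCGG words, and the 5 of *MAGEA4* hold 10 to 15 CpG, 4 of them with GGGCGG and 2 with AGGTGT. *MAGEA1* and *MAGEA10* had no entry. No methylation or binding data were used here.

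DNA methylation and chromatin enzymes are known to act on such promoters. Of 42 listed genes of DNA methylation and gene silencing, 40 were tested, and none was higher and 2 were lower with TBX3iso1 (5.0%). With TBX3iso2 1 was higher and 3 were lower (10.0%), and 1 was lower than with TBX3iso1 (2.5%). These shares lie below those of all genes tested, 21.5%, 21.2% and 6.29% in the same 3 comparisons. *DNMT1*, the maintenance methyltransferase, was at 32.5 and 30.4 RPKM in EV, 35.6 and 31.3 RPKM with TBX3iso1 and 38.9 and 34.0 RPKM with TBX3iso2, and was not called. *EHMT1*, a histone H3 lysine methyltransferase, was at 12.3 and 12.6 RPKM in EV, 6.57 and 5.63 RPKM with TBX3iso1 and 7.50 and 6.75 RPKM with TBX3iso2, and was lower with both isoforms, as was *EZH1* of the Polycomb repressive complex. *HELLS*, a chromatin remodeller needed for DNA methylation, was higher and *KDM5A*, a histone demethylase, lower with TBX3iso2. Of 12 ETS and SP factors and related genes tested, *ELF3*, an epithelial ETS factor, fell with both isoforms (log2 fold changes -2.15 ± 0.12 and -2.10 ± 0.12, SE, limma, highest Benjamini-Hochberg adjusted p = 1.86e-05), and *ETS1* and *ETV5* rose with TBX3iso2 (0.71 and 0.65). The 1 call among these that separated TBX3iso1 from TBX3iso2 was that of *KDM5A*, which was lost under 10 of 16 alternatives, and its call against EV was lost under 3 of 16.

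Of 20 listed protein partners of MAGE proteins, 17 were tested, and 2 were lower with TBX3iso1 (11.8%), none with TBX3iso2 and none between the isoforms. The shares of all genes tested that were called were 21.5%, 21.2% and 6.29%. Among the 2 lower partners was *UBE2D1*, a ubiquitin-conjugating enzyme, with a log2 fold change of -0.70 ± 0.09 (SE, limma, Benjamini-Hochberg adjusted p = 0.000858). *TRIM28* was at 114.1 and 108.9 RPKM in EV, 142.2 and 150.8 RPKM with TBX3iso1 and 142.0 and 160.0 RPKM with TBX3iso2, and was not called. Its log2 fold changes against EV, 0.39 ± 0.09 and 0.43 ± 0.09 (SE, limma, Benjamini-Hochberg adjusted p = 0.00989 and 0.00632), missed the threshold of 1.5-fold.

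Markers of other cell types were followed beside these values. The summed level of the 10 epithelial markers was 3134 and 3034 RPKM in EV, 2500.0 and 2764 RPKM with TBX3iso1 and 2918 and 3298 RPKM with TBX3iso2. With TBX3iso1 4 of them were lower (40.0%), *CDH1*, *GRHL2*, *ESRP1* and *CLDN7*, beside 14.1% of all genes tested. With TBX3iso2 2 were lower (20.0%), *KRT19* and *CLDN7*, beside 12.3% of all genes tested. The 10 stromal and immune markers summed to 55.8 and 55.5 RPKM in EV and 42.5 to 44.1 RPKM in the other libraries, with *CD68* at 34.0 to 44.1 RPKM, *COL1A1* higher and *PECAM1* lower with both isoforms, and the leukocyte markers *PTPRC* and *CD3E* at or near 0. Below the level required for testing, the fibroblast collagen gene *COL1A2* was at 0.0418 and 0.0477 RPKM in EV, 0.276 and 0.354 RPKM with TBX3iso1 and 0.0539 and 0.0376 RPKM with TBX3iso2. *LUM*, which codes for the matrix proteoglycan lumican, was at 0.267 and 0.190 RPKM in EV, 0.440 and 0.524 RPKM with TBX3iso1 and 0.138 and 0.151 RPKM with TBX3iso2. For both genes, as for *MAGEA6*, the TBX3iso1 libraries stood above all others. Both were chosen after their values were seen, and the list as a whole was mixed. Of the 10 stromal and immune markers, the TBX3iso1 libraries stood above EV for 4 and below EV for 3 (26.8% and 38.3% of all genes). Between the isoforms, 5 stood lower and 2 higher with TBX3iso2 (19.3% and 26.7% of all genes). The part of these differences in the levels of the MAGEA genes was not tested.

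Genes that were low in EV and on with an isoform were counted by a rule that *MAGEA6* meets. Under 0.1 RPKM in both EV libraries and at 1 RPKM or more in both libraries of an isoform were 7 of 20824 genes with TBX3iso1 (0.0336%) and 7 with TBX3iso2 (0.0336%), of 5324 genes that were low in EV. With TBX3iso1 these were *MAGEA6*, *HOXA11*, *LOC79160*, *MARCH4*, *PAX8-AS1*, *SLC16A9* and *TIMP3*, and with TBX3iso2 *CST7*, *HOXA11*, *MARCH4*, *PAX8-AS1*, *SLC16A9*, *TYRP1* and *XAGE2*, so that 4 genes met the rule with both isoforms and *MAGEA6* with 1. The counts depend on the levels required, and with EV under 0.2 RPKM and an isoform at 0.5 RPKM or more they were 42 with TBX3iso1 and 30 with TBX3iso2, 18 of them with both. *PAX8-AS1*, a non-coding RNA, reached the level of *MAGEA6* with TBX3iso1 (5.78 ± 0.304 RPKM, SD, n = 2), and was at 5.53 ± 0.264 RPKM (SD, n = 2) with TBX3iso2. *MAGEA6* was not under 0.1 RPKM with TBX3iso2 (0.133 and 0.160 RPKM). On with TBX3iso1 and under 0.1 RPKM with TBX3iso2 was 1 gene, *TIMP3*. On with TBX3iso2 and under 0.1 RPKM with TBX3iso1 were 2 genes. *CST7*, the inhibitor cystatin F, was listed at 0 in all EV and TBX3iso1 libraries and at 1.26 and 1.72 RPKM with TBX3iso2. *TYRP1* was at 0.0256 and 0.00877 RPKM with TBX3iso1 and 1.29 and 1.28 RPKM with TBX3iso2.

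The genes most like *MAGEA6* were ranked by the Euclidean distance of their log2(RPKM + 0.1) values from the EV mean over the 6 libraries among the 12804 other genes that reached the level required for testing. *TIMP3*, an inhibitor of metalloproteases, came first at a distance of 2.68, with 0.0494 and 0.0366 RPKM in EV, 1.48 and 1.40 RPKM with TBX3iso1 and 0.0709 and 0.0899 RPKM with TBX3iso2. *HSD11B1*, which activates glucocorticoids, followed with 0.173 and 0.0549 RPKM in EV, 1.72 and 1.95 RPKM with TBX3iso1 and 0.357 and 0.334 RPKM with TBX3iso2. The next 8, at distances of 3.23 to 3.95, included *COL6A2*, *CGB8*, *LINC01116*, *SERPINB2*, *DUSP2* and *IL32*. Of the other MAGEA genes, *MAGEA12* alone was among the genes ranked.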

How the data were processed

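Stranded mRNA libraries of 21NT + EV, 21NT + TBX3iso1 and 21NT + TBX3iso2 were sequenced as paired reads of 51 bases. The authors aligned them to hg19 with TopHat, allowing up to 10 alignments, and deposited RPKM (reads scaled to transcript length and library alignments) computed in Partek. Software versions and the gene annotation are not given in the sources used here, and depth per gene is not given.

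Values were taken to log2(RPKM + 0.1). The 12805 genes that averaged 0.5 RPKM or more were fitted with limma 3.58.1 in R 4.3.3, with 1 mean per line, a trend and Benjamini-Hochberg adjustment. Calls required more than 1.5-fold and an adjusted p below 0.05. The fit was tested on simulated data. The members, gene lists and rules were chosen with earlier results of these data known. Text genes are the members, other MAGEA genes, called genes of each list (at most 5 by fold change per list and comparison), genes meeting the switch rule and the 10 nearest profiles. Other genes given with values, such as *TRIM28*, *DNMT1* and *CSAG4*, were chosen after their values were seen. Some genes that these rules name are not reported here. Alternatives were other pseudocounts, filters, scalings and fits, a replicate block and leaving out each library. Transcript and coding sequences came from GENCODE on GRCh37 and promoters from RefSeq.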

Additional observations from a re-analysis of the deposited data

How the results depend on the processing

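The log2 difference of *MAGEA6*, given as a description since it was chosen on these libraries, was 2.68 to 6.64 for TBX3iso1 against EV and -5.21 to -2.56 for TBX3iso2 against TBX3iso1, with 1 and 0.01 RPKM added as the extremes. Some small differences changed sign. Between the isoforms, that of *MAGEA12* (0.03) was -0.02 with median-ratio scaling, -0.02 with quantile normalization and -0.03 without TBX3iso2 replicate 2, and that of *MAGEA3* (-0.18) was 0.04 without TBX3iso1 replicate 1. Those of *MAGEA11*, which rest on 1 or 2 alignments, changed sign in all 3 comparisons when 1 library was left out. Requiring a mean of 2 RPKM left *MAGEA6* untested, so that 0 members were called in each of the 3 comparisons. For TBX3iso2 against EV, 0 members were also called with 1 RPKM added, without the filter, in the linear model without moderation and with only the lines compared, and leaving out each library in turn gave between 0 and 1, with 0 without EV replicate 2 and without TBX3iso2 replicate 2. The listed genes outside the members that were called numbered 21, 23 and 5 in the 3 comparisons. Without the filter on low values they were 32 for TBX3iso1 against EV, 35 for TBX3iso2 against EV and 8 between the isoforms. Between the isoforms they were 2 with 1 RPKM added, 3 with a mean of 2 RPKM required, 0 in the linear model without moderation and 3 with only the lines compared, and leaving out each library gave 2 to 6, with 2 without TBX3iso1 replicate 1 and 3 without TBX3iso2 replicate 2. With EV under 0.2 RPKM and an isoform at 0.5 RPKM or more, 42 genes were switched on with TBX3iso1 and 30 with TBX3iso2. The cause of these changes was not tested.

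Summing *MAGEA3* and *MAGEA6* was added after seeing the data and gave log2 differences of 4.68, 0.82 and -3.86. The replicate numbers of the labels, of which there are 2, were not taken as pairs in the main fit. The deviations of same-numbered libraries correlated at 0.22 for EV and TBX3iso1, 0.11 for EV and TBX3iso2 and 0.50 for TBX3iso1 and TBX3iso2. Whether same-numbered libraries share a batch was not tested. A block for the replicate number gave 1, 1 and 1 members called and 22, 24 and 5 listed genes, within 1.5 times of the fit without the block. Depth per gene is not given, and values of members above 0 and below 0.1 RPKM correspond to 1.09 to 7.93 alignments.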

Other observations

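*CSAG4*, a CSAG row outside the lists that was chosen after its values were seen, was at 1.65 and 1.87 RPKM in EV, 1.34 and 1.33 RPKM with TBX3iso1 and 1.14 and 1.55 RPKM with TBX3iso2. Both isoforms' libraries were below those of EV, by 0.37 and 0.38 on the log2(RPKM + 0.1) scale. The read-through row *MAGEA10-MAGEA5* had a value above 0 in 1 library, 4.20e-45 RPKM in EV library 1, far below the level of 1 alignment.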
